A study of Mus musculus with 16 samples.

Results

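The relaxin peptides and their receptors were followed here in the bladder body of mature and aged mice of both sexes. The members were the ligand genes Rln1, Rln3, Insl3 and Insl5 and the receptor genes Rxfp1, Rxfp2 and Rxfp3, found on the array by the transcript accession of each feature. Of the 7 genes, 6 were matched to a feature and 5 could be tested, out of 20145 symbols on the array and 26781 genes tested in all. Of the 26781, 15933 had a symbol, and the remainder were known only by their identifier on the array and counted as genes. The family was chosen by measured values, because Rln1 had ranked among the larger falls of the male age comparison in an earlier analysis of the same arrays. The male age change of the members is therefore a description with no test. The female age change was not used in that choice and was tested.

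RNA of 16 bladders from C57BL/6 mice was labelled with Cy3 and hybridized to 1-colour Agilent arrays, 1 bladder on each. Each sex had 4 mature (MAT) mice at an age of 12 months and 4 aged (AGED) mice at 27 to 30 months, which gives 4 groups of 4. The labels name no transgene and no drug in any group. The arrays of each sex lay on 1 slide, and MAT and AGED arrays lay in different rows of it, so sex and slide cannot be told apart, nor can age and row. Directions of change follow the age labels of the arrays. The study's own list of top genes gives Mmp3 and Defb50 as lower in AGED mice, the opposite of the direction that the labels give here, in both sexes, and gives Chil3 likewise. An exchange of the age labels would turn every age direction given below, that of Rln1 included, and which direction holds was not tested.

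Relaxin peptides are small hormones of the insulin superfamily, cut from a longer precursor into paired chains held together by disulfide bonds. Relaxin itself, the product of Rln1 in the mouse, is known for loosening connective tissue and relaxing smooth muscle, and in male rodents the prostate is a known source. It acts on the receptor RXFP1, which raises cyclic AMP through the stimulatory G protein, and matrix metalloproteinases and collagens are among its known downstream genes. INSL3 from Leydig cells acts on RXFP2 in the descent of the testis, relaxin-3 is a neuropeptide that acts on RXFP3, and INSL5 is a hormone of enteroendocrine cells of the colon that acts on RXFP4. RXFP3 and RXFP4 couple to inhibitory G proteins.

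The promoters of the ligands with a feature on the array, Rln1, Insl5 and Rln3, are shown first. They are given as sequence only, and a tie to the age changes was not tested. Each sequence is the 120 bases before a RefSeq transcription start (assembly GRCm38.p6), on the gene's own strand, and capitals mark the letters TATAAA. For Insl5 the second of its 2 listed starts is shown, since the window of the other held no TATAAA. The window of Insl3, a ligand gene without a feature, held no TATAAA either and is not shown. The printed windows were thus picked in part for holding these letters.
Rln1, chr19:29334671-29334790, minus strand: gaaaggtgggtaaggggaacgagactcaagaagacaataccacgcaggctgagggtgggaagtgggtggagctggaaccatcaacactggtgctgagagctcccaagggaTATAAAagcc
Insl5, chr4:103026729-103026848, minus strand: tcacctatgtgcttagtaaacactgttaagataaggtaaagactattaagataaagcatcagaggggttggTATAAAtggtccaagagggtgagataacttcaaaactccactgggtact
Rln3, chr8:84044980-84045099, minus strand: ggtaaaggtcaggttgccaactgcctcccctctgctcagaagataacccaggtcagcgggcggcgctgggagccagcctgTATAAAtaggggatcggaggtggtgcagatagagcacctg
TATAAA began 10 bases before the listed start in Rln1, 40 bases before it in Rln3 and 49 bases before it in Insl5. On the printed strand, 7.59% of 32851 RefSeq promoters held TATAAA somewhere in the 250 bases before the start, and 2.63% held it within the last 50 bases. The letters AGAACA, the usual half-site of the glucocorticoid receptor, were searched on both strands of the same 250 bases. They were absent from the windows of Rln1, Rln3 and Insl5 and present in those of Rxfp3 and of the further family receptor Rxfp4, 197 and 209 bases before the start, and 16.1% of all promoters held them. These matches describe letters in a window and were not linked to any measurement on the arrays.

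Rln1, which encodes the relaxin hormone, was well above background on all 16 arrays and was the member that differed most between age groups in males. Well above background is the flag that the scanner software gives to a spot clearly brighter than its surroundings, and levels are given as relative signal, the processed signal in percent of the 75th percentile of its array. In MAT males the relative signal of Rln1 was 97.2, 248, 101 and 60%. In AGED males it was 19.4, 31.0, 25.6 and 23.0%. Every AGED male array lay below every MAT male array, and within the MAT males replicate 2 stood well above the other 3. The fitted difference was a fall of 4.5-fold in AGED males (log2 change -2.17, SE 0.37), given as a description since this comparison led to the family.

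In females the level of Rln1 was 13.7, 20.8, 36.9 and 29.5% on the MAT arrays. On the AGED female arrays it was 32.3, 30.3, 42.4 and 30.1%. The groups overlapped, although all AGED arrays lay above the mean of the MAT arrays. The AGED females were 1.42-fold higher (log2 change 0.50, SE 0.37, 95% interval -0.28 to 1.29), and the difference did not pass the test (limma, adjusted p = 0.688). This interval does not reach a fall of the size seen in males, and the difference between the sexes was not itself tested.

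**Figure D1:**
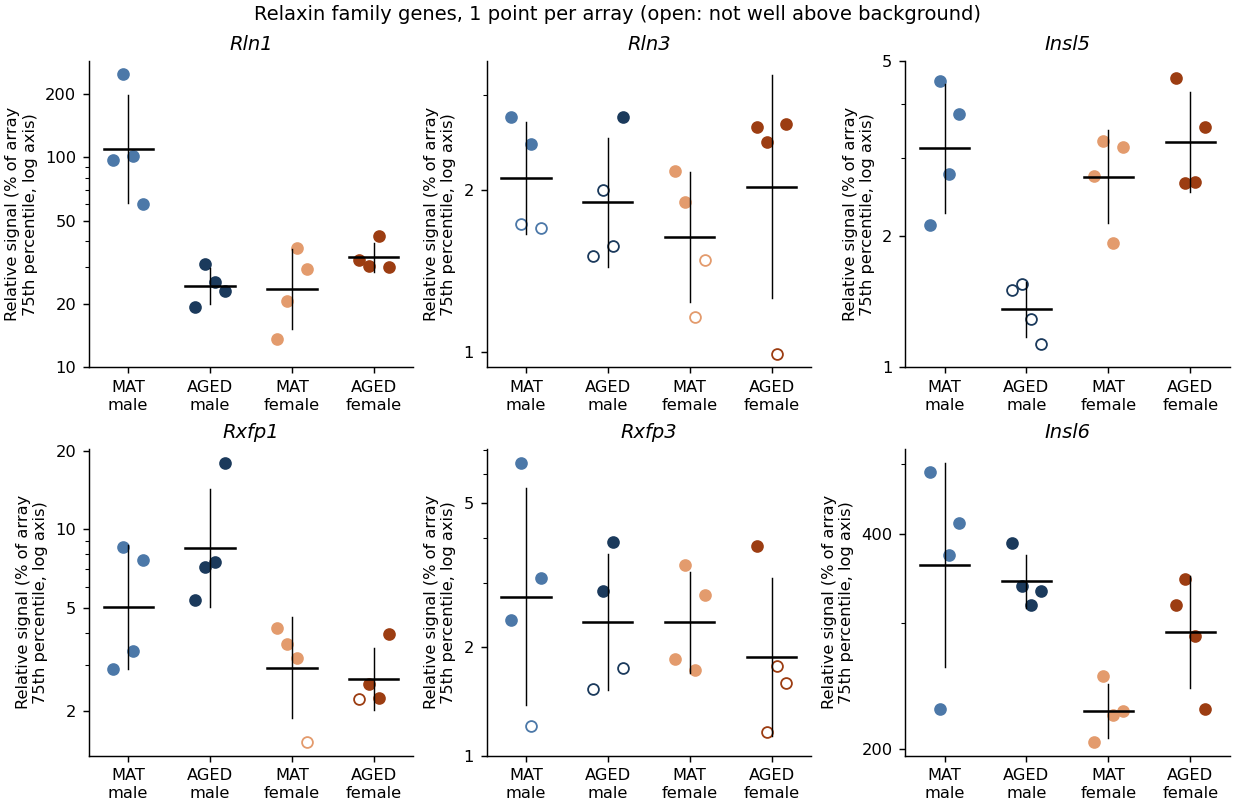
Relative signal of 5 relaxin family members and of Insl6 on each of the 16 arrays, in percent of the array's 75th percentile on a log axis. Each point is 1 array, open points are not well above background, horizontal bars are geometric means and vertical lines span 1 SD of the log2 values (n = 4). Rln1 lies between 60 and 248% in MAT males and between 13.7 and 42.4% in the other 3 groups.

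By group, the geometric mean of Rln1 was highest in MAT males at 110%, followed by AGED females at 33.4%, AGED males at 24.4% and MAT females at 23.6%. The lowest MAT male array lay above the highest array of any other group, and the other 3 groups overlapped each other. MAT males were 4.65-fold above MAT females, while AGED males were 1.37-fold below AGED females. No test is given for these sex differences, because the same male arrays led to the family and because each sex was on its own slide. In bulk tissue, fewer cells that express a gene and less RNA per cell cannot be told apart.

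Insl5, the colon hormone, was near the limit of measurement in the bladder. Its relative signal was 2.11, 4.51, 2.77 and 3.79% in MAT males, well above background on all 4 arrays. In AGED males it was 1.5, 1.55, 1.29 and 1.13% and not well above background on any array. The male groups did not overlap. Because the AGED male spots were not well above background, the fall was also taken against a floor and was then 1.46-fold. The floor was the dimmest signal that was still well above background on each AGED array, or the spot's own signal where that was higher. This is not a lower limit, since another background correction, given below, left a smaller fall.

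This male difference depended on how dim spots were handled. Its log2 change was -1.22 (SE 0.25) as measured, -0.55 when signals under the detection floor were raised to it, and -0.21 after normexp background correction, and under the last of these settings and under the floor the male groups of Insl5 overlapped. In females, Insl5 was well above background on all 8 arrays. The MAT females ranged from 1.92 to 3.28% and the AGED females from 2.64 to 4.58%, with overlap (log2 change 0.26, SE 0.25, 95% interval -0.27 to 0.80, limma adjusted p = 0.782). With 1 array left out it ranged from 0.10 to 0.37. The AGED males were the lowest group for Insl5, below every array of the other 3, which overlapped each other. Of 5 listed enteroendocrine markers, 3 could be tested and 0 were called in either sex. Over all genes tested 0.848% were called in males and 0.187% in females, so so short a list says little.

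Rln3, which encodes the neuropeptide relaxin-3, was dim everywhere, with 8 of its 16 values well above background. Its relative signal was 2.74, 1.73, 2.44 and 1.70% in MAT males and 1.51, 2.0, 1.57 and 2.74% in AGED males, which overlapped (log2 change -0.15, SE 0.32). In females it was 2.17, 1.90, 1.16 and 1.48% on MAT arrays and 2.62, 2.46, 0.992 and 2.65% on AGED arrays. AGED female replicate 3 was the lowest of all 16 arrays and the other 3 AGED females lay above every MAT female. That array also had the highest 75th percentile of all arrays (log2 11.06). Before scaling, its Rln3 signal of 21.1 lay within the MAT female range of 16.1 to 29.7. The female difference did not pass the test (log2 change 0.31, SE 0.32, 95% interval -0.36 to 0.99, limma adjusted p = 0.797). It was 0.66 without AGED female replicate 3 (adjusted p = 0.273) and 0.15 without MAT female replicate 3. The arrays used here had no feature matched to Insl3, the Leydig cell hormone, so it has no value.

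Rxfp1, the relaxin receptor, was measured on all 8 male arrays and on 3 of 4 arrays in each female group. In MAT males its relative signal was 2.91, 8.54, 3.40 and 7.60%. In AGED males it was 5.33, 7.12, 7.48 and 17.9%, with replicate 4 far above the rest. The groups overlapped, and the AGED males were 1.68-fold higher (log2 change 0.75, SE 0.43), in the direction opposite to that of the ligand. Leaving out AGED male replicate 4 brought this log2 change to 0.38.

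In females the receptor ranged from 1.53 to 4.19% on MAT arrays and from 2.22 to 3.97% on AGED arrays. The female difference was within the spread between arrays (log2 change -0.14, SE 0.43, 95% interval -1.07 to 0.78, limma adjusted p = 0.953). In order of geometric mean, Rxfp1 was 8.45% in AGED males, 5.04% in MAT males, 2.94% in MAT females and 2.66% in AGED females. Neighbours in this order overlapped, whereas every AGED male array lay above every female array.

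Rxfp3, the receptor of relaxin-3, had 2 features on the array. On the brighter one, which was tested, the relative signal was 2.37, 6.46, 1.21 and 3.1% in MAT males and 1.53, 2.85, 3.91 and 1.75% in AGED males. These groups overlapped (log2 change -0.24, SE 0.47), and the sign turned to 0.18 without MAT male replicate 2. In females the MAT arrays ranged from 1.72 to 3.37% and the AGED arrays from 1.16 to 3.80%, and the difference did not pass the test (log2 change -0.32, SE 0.47, 95% interval -1.33 to 0.69, limma adjusted p = 0.883), with a range of -0.66 to -0.08 when 1 array was left out. The feature was well above background on 3 MAT male, 2 AGED male, 4 MAT female and 1 AGED female arrays. The other feature was well above background on 1 MAT male and 2 MAT female arrays and on no AGED array, so no age change is given for it.

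On no array was Rxfp2, the INSL3 receptor, well above background. Its spots ranged from 0.249 to 0.837% of the 75th percentile, so no fold is given. Both members of the hormone and receptor pair that acts on testis descent, Insl3 and Rxfp2, were thus without a measured level in these bladders.

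**Figure D2:**
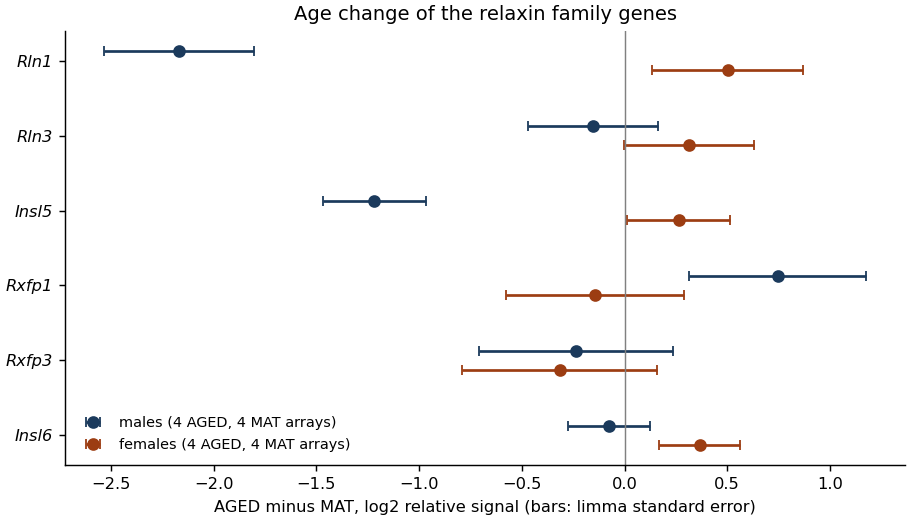
AGED minus MAT log2 relative signal of 5 tested relaxin family members and of Insl6, with bars of 1 limma standard error. Males and females, 4 AGED and 4 MAT arrays each, are in different colours. Rln1 lies at -2.17 in males and at 0.50 in females, and the remaining members except male Insl5 lie within 0.75 of 0.

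Over the 5 tested members, 0 passed the limma threshold in females (adjusted p under 0.05 and at least 2-fold), where 0.187% of all genes tested did. In females 0 members had AGED arrays all below or all above the MAT arrays, against 5.78% and 5.01% of all genes. In males 2 of the 5 members, Rln1 and Insl5, had every AGED array below every MAT array and 0 had every AGED array above, where the shares over all genes were 3.99% and 3.86%. The male counts follow from the way the family was chosen and carry no weight of their own. The median log2 change of the 5 members was -0.24 in males and 0.26 in females, against 0.0010 and -0.0026 over all genes tested.

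A pair of further family genes was added for comparison. Insl6, an insulin-like gene of the testis that is next to Rln1 in the RefSeq order of chromosome 19, was well above background on all 16 arrays. It ranged from 228 to 487% in MAT males and from 318 to 388% in AGED males, which overlapped (log2 change -0.08, SE 0.20). In females it ranged from 205 to 253% on MAT arrays and from 228 to 346% on AGED arrays (log2 change 0.37, SE 0.20, limma adjusted p = 0.544). The neighbour of Rln1 therefore had overlapping male groups where Rln1 had separate ones. The INSL5 receptor Rxfp4 was well above background on 0 of the 16 arrays.

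The likeness of other genes to Rln1 was measured as the Pearson correlation of log2 relative signal over the 16 arrays, which share slide and row with group. The 5 nearest genes were Ambp (r = 0.86), the precursor of alpha-1-microglobulin and bikunin, the kinase gene Pim3 (r = 0.86), Dppa5a (r = 0.85), the claudin gene Cldn23 (r = 0.85) and the circadian transcription factor gene Bhlhe40 (r = 0.85). Without the 4 MAT male arrays, r over the remaining 12 fell to 0.75, 0.09, 0.46, 0.23 and 0.41 in the same order. Pim3 and Cldn23 thus followed Rln1 mainly through the MAT males, and Ambp also did so across the other groups. Ambp ranged from 13.3 to 58.4% in MAT males, 12.7 to 18.5% in AGED males, 10.1 to 15.5% in MAT females and 18.2 to 24.4% in AGED females.

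For Rxfp1 the nearest genes were Rxrg, a retinoid X receptor (r = 0.89), the ribosomal protein gene Rps9 (r = 0.86), Emc6 (r = 0.86), the lipid peroxide reductase gene Gpx4 (r = 0.85) and Gtf2h5 (r = 0.85). Rxrg ranged from 144 to 265% in AGED males and from 115 to 145% in MAT males, with the females at 92.7 to 137%. For Rxfp3 they were Mapk6 (r = 0.84), Trim43b (r = 0.76), Tcp11 (r = 0.75), Xirp1 (r = 0.74) and the muscle cofilin gene Cfl2 (r = 0.74). Between Rln1 and its receptor Rxfp1 the correlation was 0.05, and between Rln1 and Insl5 it was 0.39. These correlations are descriptions over arrays that also differ by group, and they carry no test.

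Because the male prostate and seminal vesicle lie at the bladder neck, the markers of accessory glands were read beside Rln1. Of 16 listed markers, 4 could be tested, namely Spink1, Tgm4, Hoxb13 and Defb50. The defining secretory genes Svs1, Svs3a, Svs3b, Svs4, Svs6, Pbsn and Msmb were not well above background on any of the 16 arrays. Svs2, Svs5, Pate4 and Sbp were so on 1 or 2 arrays each, and both arrays for Svs5 were MAT males. The summed level of the 4 tested markers was 21.1 to 34.4% in MAT males and 47.0 to 78.9% in AGED males. It was 29.5 to 38.7% and 27.9 to 30.4% in MAT and AGED females. Of the 4, 2 had higher and 2 had lower means in AGED males. Hoxb13 was also bright in females, at 21.2 to 31.2% on MAT and 15.1 to 20.1% on AGED arrays. The sum is therefore no measure of gland tissue, and a part of such tissue in the level of Rln1 was not tested.

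Defb50, a beta-defensin gene, made up 55.8 of the 78.9% in AGED male replicate 1, whereas in replicates 3 and 4 Hoxb13 was the larger part, at 31.3 and 33.0% against 15.2 and 6.91% for Defb50. Defb50 ranged from 0.946 to 3.11% in MAT males and from 6.91 to 55.8% in AGED males. It is among the study's own top genes from these arrays, and the marker list was made with earlier results known. Its log2 change was 3.32 in males (SE 0.49, limma adjusted p = 0.00394) and 1.81 in females (SE 0.49, adjusted p = 0.185). The male call was lost with the male arrays alone (0.135) and with the methods' t-test after adjustment (0.279), and the female change passed with the female arrays alone (0.0169) and with array weights (0.0328). Tgm4, the prostate transglutaminase gene, did not pass the test in males (log2 change -0.22, SE 0.30, adjusted p = 0.746), nor did Spink1 (log2 change -0.28, SE 0.35, adjusted p = 0.713) or Hoxb13 (log2 change 0.27, SE 0.25, adjusted p = 0.606). The tested feature of Tgm4 was at 2.66 to 3.87% in MAT males and at 2.59 to 2.92% in MAT females. Its other feature was well above background on no array. Of the 6 Leydig cell markers, Cyp11a1, Hsd3b6, Lhcgr and Hsd17b3 were not well above background on any array. The steroidogenic enzyme gene Cyp17a1 and the cholesterol transporter gene Star were so on all 16, and neither passed the test in either sex (adjusted p 0.614 and 0.292 in males, 0.586 and 0.412 in females). Smooth muscle and urothelium, the main tissues of the bladder body, had all 8 of their 8 listed markers tested in each list, and 0 of them were called in either sex. The lists of uterus, oviduct and ovary (5 tested), fibroblast (6), endothelium (5), peripheral nerve (8) and macrophage and T cell markers (6) also had 0 genes called. Over all genes tested 0.848% were called in males and 0.187% in females, so 0 calls in lists this short do not show that a cell type was unchanged. Their median log2 changes ran from -0.37 for fibroblast to 0.38 for macrophage and T cell markers in males, and the nerve markers had the lowest median in females, -0.61. All 8 nerve markers had lower means in AGED females. For 5 of them every AGED female array lay below every MAT female array, where 5.78% of all genes did so. In males 7 of the 8 had lower means and 0 were separate in this way.

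**Figure D3:**
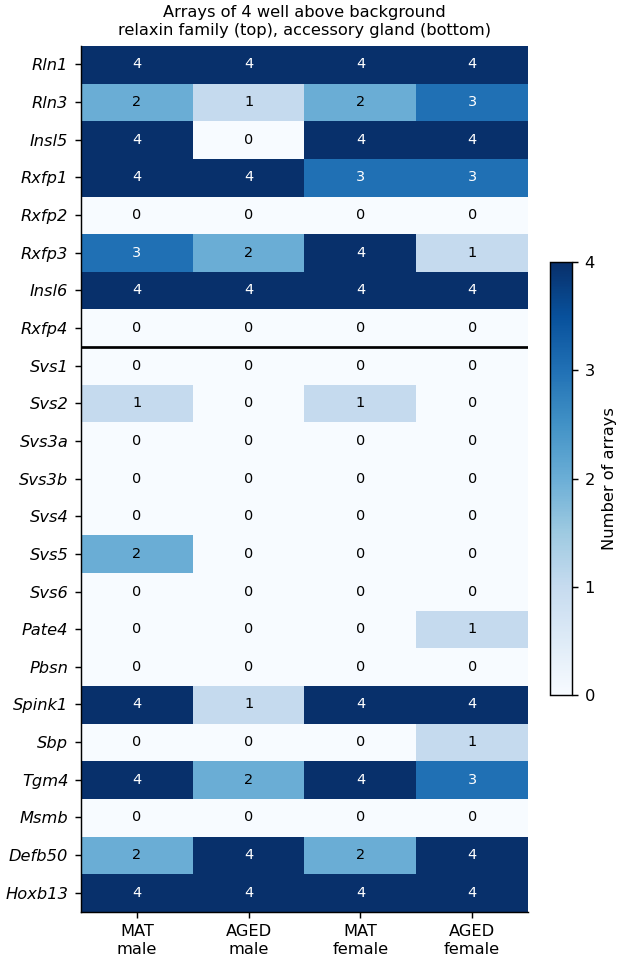
Number of arrays, of 4 in each group, on which a gene had a feature well above background, for the relaxin family genes with a feature (top) and accessory gland markers (bottom). Rln1 is at 4 in every group and Insl5 at 0 in AGED males only, while Rxfp2 and gland markers such as Svs1 and Pbsn are at 0 in every group.

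AGED male replicate 1 stood apart from the other arrays of its group, with the lowest 75th percentile of all arrays (log2 9.39). Its summed macrophage and T cell marker level was 12100% against 6240 to 6740% in the other 3. Its summed endothelial marker level, 496% against 1980 to 2330%, lacked Vwf, whose value on this array was left out for an outlier flag. In the other 3 Vwf alone was at 1540 to 1830%, so the endothelial sums cannot be compared. Without this array the male log2 change was -2.06 for Rln1, -1.26 for Insl5 and 0.97 for Rxfp1. In males, 61.5 to 66.7% of the spots of a MAT array and 53.7 to 62.3% of those of an AGED array were well above background, which bears on dim genes such as Insl5. In females the shares were 65.6 to 69.1% and 61.1 to 64.3%. The part of these differences in the results above was not tested.

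The genes around the relaxin receptors were counted in 6 lists, from precursor processing to the matrix. Of 84 listed genes 80 were tested, and 1 was called in each sex (1.25%), where 0.848% of all genes were called in males and 0.187% in females. It was the same gene in both sexes, Mmp3, a matrix metalloproteinase known to be induced by relaxin, and it was higher in AGED mice. Mmp3 is among the study's own top genes from these arrays, and the lists were made with earlier results known. These counts of calls therefore carry no weight of their own, and a tie of Mmp3 to relaxin was not tested. Mmp3 ranged from 11.5 to 20.9% in MAT males and from 45.0 to 155% in AGED males (log2 change 2.47, SE 0.31, limma adjusted p = 0.00118). In females it ranged from 45.7 to 56.1% on MAT arrays and from 181 to 217% on AGED arrays (log2 change 1.90, SE 0.31, adjusted p = 0.0281). Neither pair of groups overlapped. The female call was lost without any 1 of AGED female replicates 1, 2 or 4 or of the 4 MAT females, with the replicate number as a block (adjusted p = 0.0905) and with normexp (0.107). The male call was lost with the male arrays alone (0.0995) and with the methods' t-test after adjustment (0.252).

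The remaining matrix genes did not pass the test, among them the smooth muscle actin gene Acta2 (log2 change 0.06 in males and -0.07 in females) and the inhibitor gene Timp2 (-0.42 and 0.02). Of the 18 tested matrix genes, 15 had lower means in AGED males and 9 in AGED females, with a median log2 change of -0.16 in males. In the list of precursor processing, 0 of 6 tested genes were called, including the prohormone carboxypeptidase gene Cpe (-0.10 in males and -0.12 in females) and the convertase gene Furin (0.58 and 0.34). Their median log2 change was 0.30 in males and 5 of the 6 had lower means in AGED females.

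Downstream of the receptors, 0 of 23 tested genes of G proteins, adenylyl cyclase and protein kinase A were called in either sex. The highest-signal members were Gnas, the stimulatory G protein itself (log2 change -0.08 in males and -0.01 in females), and Prkacb, a catalytic subunit of protein kinase A (-0.21 and -0.31). The kinase list had 0 of 16 called, with Rela at -0.23 and 0.07 and Akt1 at 0.13 and 0.02 in males and females, and the nitric oxide list 0 of 11, with Vegfa at -0.21 and 0.19 and Nos3 at 0.08 and 0.29. Of the 5 sex steroid receptors 0 were called. The estrogen receptor gene Esr2 was at -0.16 in males and -0.14 in females.

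**Figure D4:**
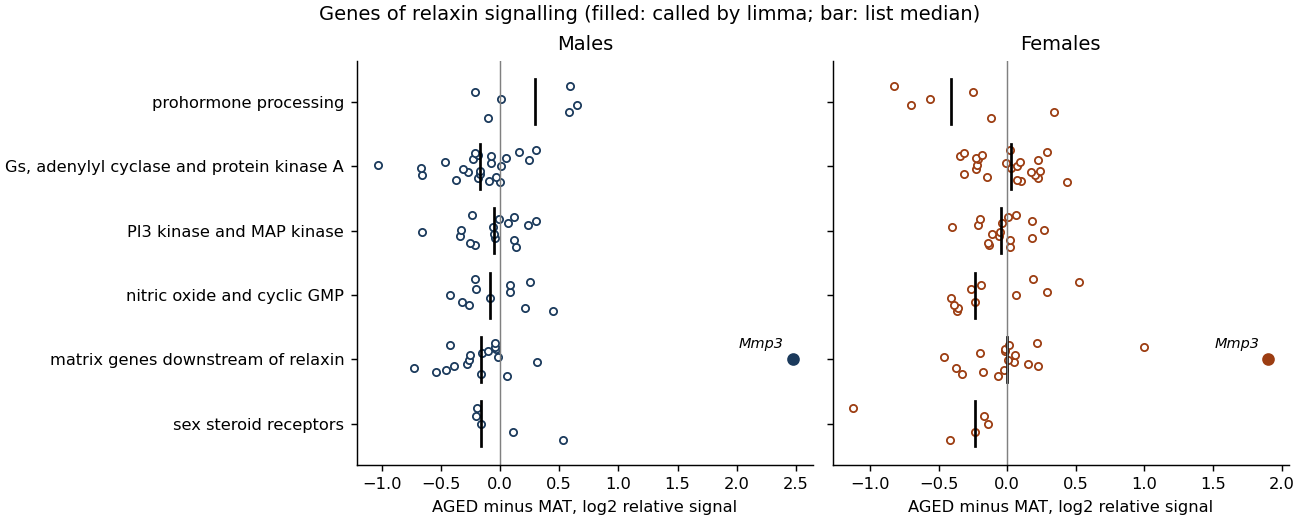
AGED minus MAT log2 relative signal of the 80 tested genes of 6 relaxin signalling lists, in males (left) and females (right). Each point is a gene, filled where called by limma, and vertical bars are list medians. Mmp3 is the filled point in both panels, at 2.47 in males and 1.90 in females.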

How the data were processed

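Total RNA of 16 bladder bodies was hybridized by the authors to 1-colour Agilent SurePrint G3 arrays and read with Feature Extraction (version 9.1 per the labels, 10.7.3.1 per the file headers). For every spot the authors deposited an intensity called the processed signal, which the software corrects for background and spatial trend, with no normalization between arrays. They also deposited a table of log2 values, centred on each probe's median, whose largest median difference from the centred scanner values was 0.004454, with column medians of -0.125 to 0.29. Each array had 62976 spots, none saturated. The number of arrays limits the precision.

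Control spots and 399 values with an outlier flag were left out. The log2 processed signal less the array's 75th percentile was used. Of 55681 probes 26582 were named through RefSeq accessions, and 36974 were well above background on at least 4 arrays. The brightest kept probe stood for each of 26781 genes (6573 had over 1). A single group-means model over the 16 arrays (12 residual degrees of freedom) was fitted with limma 3.58.1 under R 4.3.3. Calls required a Benjamini-Hochberg adjusted p under 0.05 and 2-fold. The fit was tested on simulated data. Sex was compared only as levels, without a test. The p-values measure the spread between arrays of different mice, as far as the labels tell.

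The members and the gene lists were chosen with earlier results of these data known. The text names all members, the called genes of each list or otherwise its 2 brightest, and the 5 genes most like Rln1 and each tested receptor. Lists of further cell types (uterus, fibroblast, endothelium, nerve, enteroendocrine cell, macrophage and T cell) were read as counts of calls and median log2 changes. Summed levels were used to look for arrays that stood apart. The values of 2 listed genes are not reported here. No probe sequences or proteins were used here.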

Additional observations from a re-analysis of the deposited data

Results flagged for a closer look

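In each group of 4 arrays, the gap of the highest or lowest array to its nearest neighbour was compared with Dixon's critical value, which chance exceeds in about 1 of 20 groups. It was exceeded in 4 of 76 groups (5.26%). For Rln3, AGED female replicate 3 lay below the other 3 AGED females, with a gap of 0.923 of the group's range. AGED male replicate 1 was apart in summed marker levels, with gaps of 0.873 for the male accessory gland markers (78.9% against 47.0 to 50.2%) and 0.884 for macrophages and T cells (12100% against 6240 to 6740%). The gap of 0.895 for endothelium (496% against 1980 to 2330%) came from a sum that lacked Vwf on this array, left out for an outlier flag. It is counted among the 4 but is no measure of an endothelial difference.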

How the results depend on the processing

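The settings tried were quantile and median scaling, normexp background correction, the authors' log2 table, other filters and a floor for dim signals, other treatments of several probes, a variance trend, each sex alone, weighted arrays, the replicate block, the methods' t-test, flagged spots kept, and each array left out. Under all 33 of these alternatives 0 members were called in females. The female change of Rln1 ranged from 0.24 to 0.72 with 1 array left out and from 0.37 to 0.58 otherwise (adjusted p 0.398 to 0.962), and its male change from -2.46 to -1.71. With 1 array left out, the female change of Rxfp1 ranged from -0.46 to 0.028, the latter without MAT female replicate 1 (adjusted p = 0.999). The count of members with separate male groups, 2, became 1 with normexp and 1 with the floor. Feature values above background numbered 63, and 96 by the more lenient flag for a positive and significant signal.

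The pathway genes called in males, 1, became 2 with median scaling, 8 with normexp, 0 with the male arrays alone, 2 with the methods' t-test unadjusted and 0 adjusted, and ranged from 1 to 2 with 1 array left out, being 2 without AGED male replicate 1 or 2. In females the 1 call became 0 with normexp, 0 with the replicate block and 2 with the unadjusted t-test, and ranged from 0 to 1 with 1 array left out. Same-numbered arrays did not deviate together (r from -0.15 to 0.07), so the numbers share only a position on the slide, and the replicate block left 3 of 50 calls over all genes in females and 183 of 227 in males. Over all genes the calls ranged from 1 to 393 in females and from 0 to 753 in males, and normexp moved the male median of all genes to 0.12. The cause of these differences was not tested. Slide as a block was not run, since each slide held 1 sex. Dim signals limit Rln3, Insl5, Rxfp2 and Rxfp3.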
